A study of Homo sapiens with 8 samples.

Results

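The AP-1 family and its fellow immediate early genes were followed through the silencing of TCF7L2 in SW480 cells, an established line from a human colorectal cancer. The group comprised 10 genes taken by symbol: the FOS family (FOS, FOSB, FOSL1, FOSL2), the JUN family (JUN, JUNB, JUND), and EGR1, IER2 and IER3. All 10 were among the 18656 genes listed, and all 10 were among the 11894 kept for testing, which had at least 1 TPM (a transcript share normalised for length and library size) in at least 2 libraries. FOSB was kept on 4 of 8 libraries, and the other 9 genes had 1 TPM or more in 8 of 8. Ribosomal RNA-depleted total RNA had been sequenced from 4 groups of 2 libraries. Control cells received a negative control siRNA and were labelled 0 h, and the other groups received a lipid-delivered siRNA against TCF7L2 for 24, 48 or 72 h. All groups were the same line in serum-containing medium. The control was labelled 0 h only, so the siRNA and the time since transfection cannot be told apart, and the 3 comparisons with 0 h share the same control libraries.

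AP-1 is a dimer of basic leucine zipper proteins, usually a JUN protein with a FOS protein, that binds the sequence TGACTCA. FOS, JUN, EGR1, IER2 and IER3 are immediate early genes: growth factors, serum and stress switch them on within minutes, through ERK, JNK and p38 kinases acting on SRF with its ternary complex factors and on ATF and CREB proteins, with no need for new protein. In colorectal cancer cells AP-1 is also known to work beside the beta-catenin and TCF complex to which TCF7L2 belongs, and JUN and FOSL1 have been described as genes that this complex activates.

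At 72 h the members had moved both ways. FOSB, FOSL1 and JUN had risen over the 0 h level, and EGR1, IER2 and IER3 had fallen below it, in limma's test over all kept genes at an adjusted p under 0.05. This made 3 of 10 members higher and 3 of 10 lower, where the calls over all kept genes came to 41.8%, 10.5% in the higher and 31.2% in the lower direction. IER2 gave the largest fall among the members, from 48.12 and 47.51 TPM at 0 h to 26.31 and 24.16 TPM at 72 h. The count of 6 dropped to 1, IER2, when either 0 h library was left out or the 0 and 72 h libraries were fitted alone, and lay between 1 and 7 over all single omissions. At 48 h 1 member, IER2, was called lower, where 7.75% of all kept genes were called, and at 24 h none was, where 0.462% were. Both counts depended on the libraries fitted: without either 72 h library, or with the compared groups fitted alone, 5 members (FOSL1, JUND, EGR1, IER2 and IER3) were called lower at 24 h and the same 5 at 48 h, with unchanged differences.

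The sequence before the start site is shown for 2 members that rose at 72 h and 2 that fell. Some of the elements through which immediate early genes are known to be switched on lie there. The 250 bases before each start are those of the RefSeq promoter table (GRCh38.p14), which matched 8 of the 10 members, without FOSL1 and IER3. Sequence farther upstream was not searched. The windows are chr1:58784048-58784297 on the minus strand for JUN, chr19:45467746-45467995 on the plus strand for FOSB, chr19:13150161-13150410 on the plus strand for IER2 and chr5:138465229-138465478 on the plus strand for EGR1. Capitals mark matches to the motifs searched, on either strand.
JUN: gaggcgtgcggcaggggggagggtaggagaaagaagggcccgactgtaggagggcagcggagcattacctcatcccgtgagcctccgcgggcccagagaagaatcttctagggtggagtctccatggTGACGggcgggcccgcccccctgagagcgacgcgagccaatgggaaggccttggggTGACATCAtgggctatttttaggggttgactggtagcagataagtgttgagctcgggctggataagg
FOSB: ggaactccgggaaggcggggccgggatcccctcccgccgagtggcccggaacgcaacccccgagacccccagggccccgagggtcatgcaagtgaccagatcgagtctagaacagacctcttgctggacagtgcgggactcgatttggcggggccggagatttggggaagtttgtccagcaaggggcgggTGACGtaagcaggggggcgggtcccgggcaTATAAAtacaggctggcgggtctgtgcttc
IER2: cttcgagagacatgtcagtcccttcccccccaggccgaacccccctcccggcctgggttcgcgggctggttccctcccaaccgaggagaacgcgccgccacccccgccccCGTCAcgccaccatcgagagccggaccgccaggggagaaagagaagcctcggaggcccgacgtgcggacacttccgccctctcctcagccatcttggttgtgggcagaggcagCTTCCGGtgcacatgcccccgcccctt
EGR1: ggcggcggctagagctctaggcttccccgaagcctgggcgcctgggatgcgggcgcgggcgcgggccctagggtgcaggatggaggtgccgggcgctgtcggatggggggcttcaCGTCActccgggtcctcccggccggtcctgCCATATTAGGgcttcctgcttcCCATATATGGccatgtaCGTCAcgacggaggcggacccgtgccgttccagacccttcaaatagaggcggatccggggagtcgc

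In JUN the capitals mark TGACG, 123 bases before the start, and TGACATCA, the variant AP-1 site known for binding JUN with ATF proteins, 67 bases before it. FOSB held TGACG 60 bases and a TATA box (TATAAA) 30 bases before its start. IER2 held TGACG at 140 bases and the ETS core CCGGAAG at 27 bases, both read on the opposite strand. EGR1 held 2 CArG boxes, the element bound by SRF, 105 and 83 bases before its start, and TGACG on the opposite strand at 135 and 66 bases. A CArG box was found in 1.16% of the 35116 promoter windows searched and in 1.07% of those of kept genes. The same shares were 10.7 and 5.87% for TATAAA, 8.52 and 14.1% for CCGGAAG, and 2.37 and 1.33% for TGACATCA.

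TGACG, the core of the cAMP response element bound by CREB and ATF proteins, was found in 8 of the 8 member promoters, against 21.2% of all windows and 27.6% of those of kept genes. The full element TGACGTCA, which contains TGACG, was found in JUND alone of the 8, and in 1.65% of all windows. FOS and JUNB held TATAAA at 33 and 31 bases before the start and TGACG at 64 and 137 bases. No window of the 8 held TGACTCA (4.2% of all windows), the EGR1 sites GCGTGGGCG (0.72%) and GCGGGGGCG (4.72%), or the TCF/LEF sites CTTTGAT (2.26%) and CTTTGAA (3.8%). In all 11 motifs were searched on both strands, and they were chosen with these sequences in view. A match is a stretch of letters and no measure of binding.

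The libraries themselves set limits. Listed TPM summed to between 448107 and 485602 in 7 libraries and to 352456 in the second 72 h library, and the median change of all kept genes was -0.09, -0.02 and -0.19 on the log2 scale at 24, 48 and 72 h. Every change was therefore also computed after median-ratio scaling, which divides each library by its median ratio to the mean profile and brought these medians to 0.00, -0.01 and 0.00. Read depth is unknown, since TPM does not preserve it. Nothing in the labels says that the 2 libraries of a group came from separate cultures, and the spread that the p-values measure may be technical. In bulk RNA, fewer cells expressing a gene and less RNA per cell cannot be told apart. TCF7L2 itself had 6.86 and 7.47 TPM at 0 h and 4.07 and 3.53 TPM at 72 h. The change was -0.77 ± 0.17 (SE, limma adjusted p = 2.98e-05), and -0.58 ± 0.11 with scaling (adjusted p = 0.00197). From 48 to 72 h TCF7L2 changed by -0.19 as deposited and -0.02 with scaling, neither called. Of 9 colon epithelial markers all 9 reached 1 TPM in some library, and their summed level was 3145 to 4225 TPM. At 72 h 2 were called higher and 1 lower as deposited, where 10.5 and 31.2% of all kept genes were. With scaling 6 and 1 were, where 25.8 and 26.2% were. CDX2 went from 8.63 and 8.66 TPM at 0 h to 6.6 and 4.42 TPM at 72 h, and KRT20 from 0.52 and 0.62 to 2.98 and 2.59 TPM. KRT20 reached 1 TPM at 48 and 72 h alone, so it was kept only through groups where it was high. Summed fibroblast markers went from 10.9 and 12.8 TPM at 0 h to between 36.1 and 52.2 TPM at 72 h, most of it LUM. LUM had at most 9.35 TPM at 0 h, then 45.01 and 29.64 TPM at 72 h. COL1A1 went from 1.94 and 1.21 to 2.67 and 3.02 TPM, and COL3A1 from 0.01 and 0.02 to 2.63 and 1.88 TPM. COL1A2, DCN and PDGFRB were under 1 TPM in each 72 h library. Of the 6, 3 were kept, and all 3 were called higher at 72 h on both scales. Of all kept genes 10.5% were as deposited and 25.8% with scaling. COL3A1 reached 1 TPM in the 72 h libraries alone. It was kept only through the group where it was high, so its call cannot be weighed against these shares. Leukocyte markers went from at most 5.59 to at least 27.1 TPM, nearly all CD68 and LYZ. PTPRC stayed under 1 TPM in every library. Their part in the results was not tested.

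**Figure D1:**
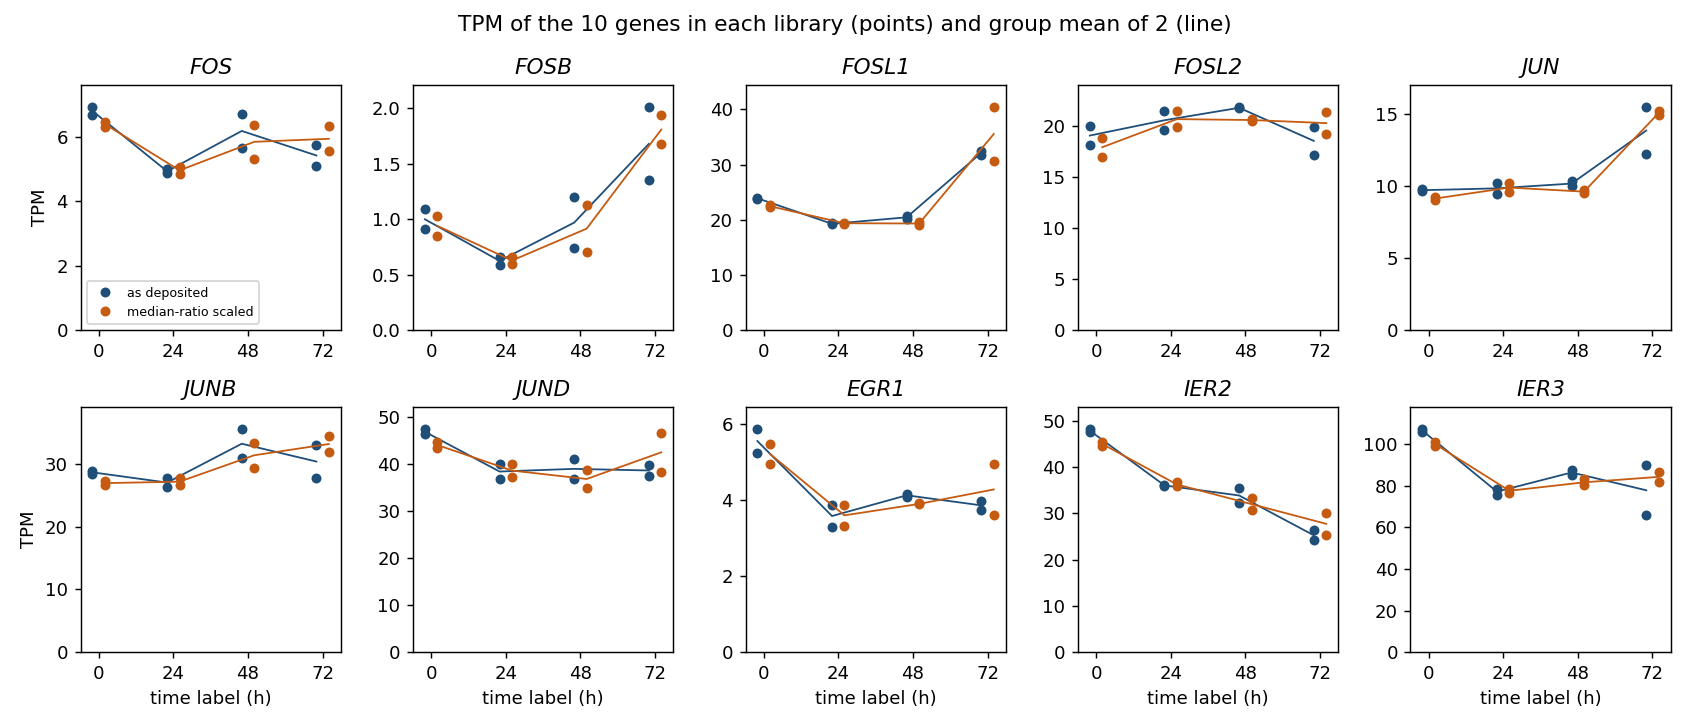
TPM (vertical axes, each from 0) of the 10 members at 0, 24, 48 and 72 h (horizontal axes), as deposited and after median-ratio scaling, with 1 point per library and a line through the group means. FOSL1 and JUN lie highest at 72 h on both scales, and IER2 as deposited falls from 48.12 and 47.51 TPM at 0 h to 26.31 and 24.16 TPM at 72 h.

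FOSL1 encodes FRA-1, a FOS family protein without the strong activation domain of FOS and a partner of JUN. It had 23.99 and 23.84 TPM at 0 h, 19.34 and 19.22 TPM at 24 h, 20.72 and 20.20 TPM at 48 h, and 31.81 and 32.51 TPM at 72 h. Both 72 h libraries lay above the other 6, and the 24 and 48 h libraries lay below both controls. The rise over 0 h at 72 h was 0.41 ± 0.16 on the log2(TPM + 1) scale (limma adjusted p = 0.0271), a mean TPM 34.5% higher. With median-ratio scaling it was 0.63 ± 0.11 (adjusted p = 0.000914). The call as deposited was lost without either 0 h library (adjusted p = 0.171 and 0.187), either 24 h library (0.0639 for each) or either 48 h library (0.0655 for each), and with scaling it held without any 1 library. The 48 h change of -0.22 and the 24 h change of -0.30 did not pass the test (limma adjusted p = 0.508 and 0.733), but were called lower without either 72 h library (48 h, 0.0256 and 0.0266; 24 h, 0.0290 and 0.0294).

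FOSB, the FOS relative with its own activation domain, was the lowest member, at the 3.80th percentile of kept genes at 0 h. Its libraries gave 1.09 and 0.91 TPM at 0 h, 0.66 and 0.59 TPM at 24 h, 0.74 and 1.20 TPM at 48 h, and 2.01 and 1.35 TPM at 72 h. The 72 h libraries lay above all others and differed widely from each other. The rise was 0.41 ± 0.18 (limma adjusted p = 0.0451), or 0.53 ± 0.14 with scaling (adjusted p = 0.00976). At this level the pseudocount set its size: 0.67 with a pseudocount of 0.1, which was not called (adjusted p = 0.0805), and 0.15 with 5, which was (0.0362). Quantile normalization (0.36, adjusted p = 0.0672) and testing with no filter on low genes (0.0966) also ended the call. Without the first 72 h library it was 0.23 (adjusted p = 0.276), and omitting either control ended the call too (0.102 and 0.262), as did omitting either 24 h (0.0672 and 0.0682) or 48 h library (0.0538 and 0.0545). The scaled call ended on omitting the first 72 h library (adjusted p = 0.0536) or the second control (0.067).

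FOS, the founding member and the standard readout of serum response, stood at 6.68 and 6.91 TPM at 0 h, 4.86 and 4.99 TPM at 24 h, 6.70 and 5.65 TPM at 48 h, and 5.75 and 5.08 TPM at 72 h. The 24 h libraries were the lowest and lay below both controls, and 1 of the 48 h libraries was back among them. No change of FOS was called: it was -0.40 ± 0.16 at 24 h (limma adjusted p = 0.486), -0.12 at 48 h (0.760) and -0.28 at 72 h (0.157). Without the first 72 h library the 72 h value was called (adjusted p = 0.0279), and with scaling it was -0.09 (adjusted p = 0.480).

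FOSL2 encodes FRA-2, the relative closest to FRA-1. It had 19.96 and 18.17 TPM at 0 h, 21.48 and 19.65 TPM at 24 h, 21.73 and 21.84 TPM at 48 h, and 19.92 and 17.17 TPM at 72 h. The 72 h libraries overlapped the controls, and the change was -0.04 with a 95% interval of -0.35 to 0.27 (limma adjusted p = 0.862). With scaling it was 0.17 ± 0.08 (adjusted p = 0.0965).

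Within the FOS family the make-up of the summed TPM differed between groups, a ratio within each library that median-ratio scaling does not alter. FOSL1 made up 46.4 and 47.8% of it at 0 h, between 41.3 and 43.2% in the 24 and 48 h libraries, and 53.5 and 57.9% at 72 h. The share of FOSL2 was 38.6 and 36.5% at 0 h, reached at most 46.4% in any library (24 h) and was 33.5 and 30.6% at 72 h. FOSL2 was the larger of the pair at 24 and 48 h in every library, and FOSL1 at 0 and 72 h. FOS itself gave 12.9 and 13.9% at 0 h and 9.67 and 9.05% at 72 h, and FOSB never exceeded 3.38%. FOSL1 stood at 3.59 and 3.45 times the TPM of FOS at 0 h and at 5.53 and 6.40 times at 72 h. These shares are descriptions, with 2 libraries a group and no test.

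JUN, which forms the most active AP-1 dimers and can also pair with itself, stayed near its 0 h level at 24 and 48 h. Its libraries had 9.76 and 9.64 TPM at 0 h, 10.19 and 9.47 TPM at 24 h, 9.99 and 10.33 TPM at 48 h, and 15.45 and 12.22 TPM at 72 h. Both 72 h libraries lay above the other 6, and after scaling they stood closer together, at 14.91 and 15.19. The 72 h rise was 0.46 ± 0.16 (limma adjusted p = 0.0133), a mean TPM 42.6% higher, and 0.67 ± 0.07 with scaling (adjusted p = 6.7e-05). As deposited the call was lost without either 0 h library (adjusted p = 0.107 and 0.126), and with scaling it was kept whichever library was left out. The 24 h change was 0.02, with a 95% interval of -0.30 to 0.33.

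JUNB and JUND carry a basic leucine zipper like that of JUN, and JUNB is known to dampen JUN in many settings. JUNB had 28.86 and 28.38 TPM at 0 h, 27.75 and 26.23 TPM at 24 h, 30.87 and 35.47 TPM at 48 h, and 33.01 and 27.66 TPM at 72 h. Its 72 h libraries enclosed the controls, with a change of 0.08 (limma adjusted p = 0.728), but with scaling both lay above the controls and the change was 0.29 ± 0.07 (adjusted p = 0.00835). Omitting the second control or the second 72 h library ended that scaled call (adjusted p = 0.0508 and 0.0502).

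JUND is the steady JUN protein of resting cells. It had the most TPM of the AP-1 members at 0 h, 47.42 and 46.36, and then 40.10 and 36.76 TPM at 24 h, 36.86 and 41.14 TPM at 48 h, and 39.81 and 37.50 TPM at 72 h. All 6 TCF7L2 siRNA libraries lay below both controls, yet with all 8 libraries no change passed the test: it was -0.28, -0.26 and -0.27 at 24, 48 and 72 h (limma adjusted p = 0.764, 0.384 and 0.162). Without either 72 h library the 24 h value (0.0481 and 0.0487) and the 48 h value (0.0237 and 0.0240) were called lower. With scaling the 72 h libraries overlapped the controls and the change was -0.06 (adjusted p = 0.619), while without the first 72 h library the value as deposited was called lower (adjusted p = 0.00963).

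The JUN family's make-up also differed. JUN gave 11.3 and 11.4% of the family's TPM at 0 h and 17.5 and 15.8% at 72 h, and JUND gave 55.1 and 54.9% at 0 h and 45.1 and 48.5% at 72 h. JUNB lay between 33.5 and 40.8% in the 8 libraries, highest at 48 h. JUN stood at 0.206 and 0.208 of the TPM of JUND at 0 h and at 0.388 and 0.326 at 72 h. The summed TPM of the FOS family was 51.72 and 49.83 at 0 h and 59.49 and 56.11 at 72 h. That of the JUN family was 86.04 and 84.38 at 0 h and 88.27 and 77.38 at 72 h. These sums are as deposited. The divisors of median-ratio scaling were 1.06 and 1.07 at 0 h and 1.04 and 0.80 at 72 h.

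**Figure D2:**
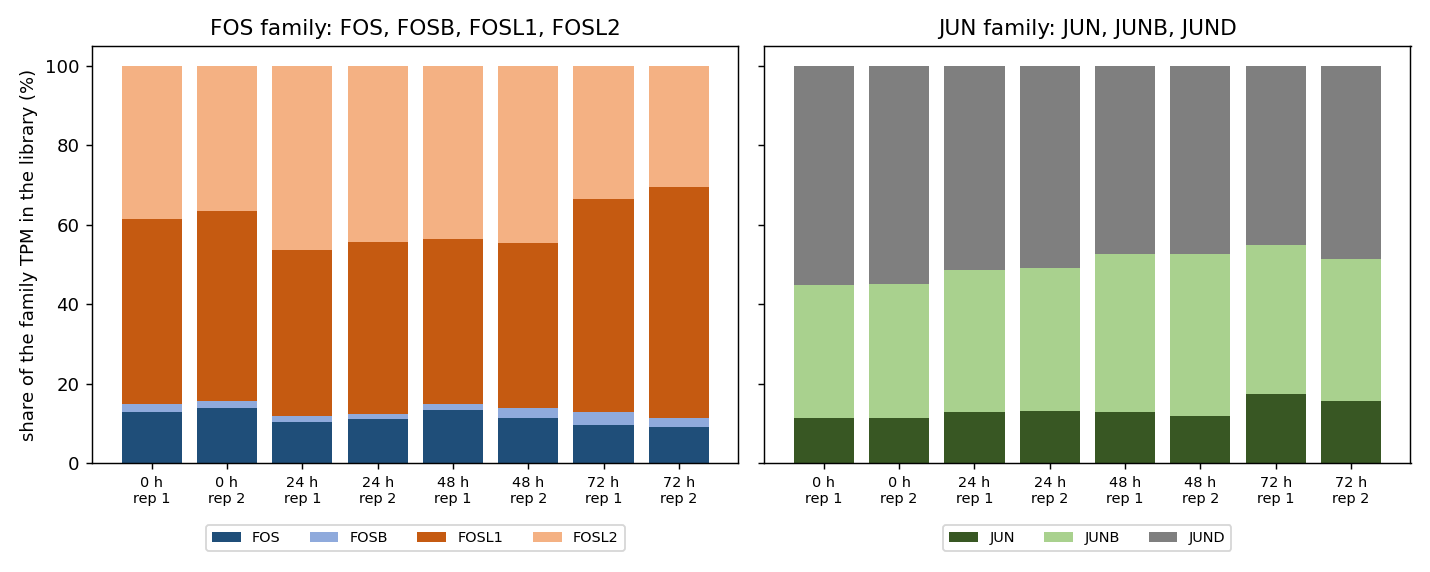
Share of each gene in the summed TPM of its family (vertical axis, percent) for the FOS family and the JUN family, with 1 stacked bar for each of the 8 libraries (horizontal axis). FOSL1 grows from 46.4 and 47.8% at 0 h to 53.5 and 57.9% at 72 h, and JUN from 11.3 and 11.4% to 17.5 and 15.8%.

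EGR1 encodes a zinc finger factor that serum induces through SRF and ternary complex factors. Its level was 5.24 and 5.86 TPM at 0 h, 3.88 and 3.28 TPM at 24 h, 4.09 and 4.16 TPM at 48 h, and 3.74 and 3.98 TPM at 72 h. All 6 TCF7L2 siRNA libraries lay below both controls, with little order among the 3 times. The change was -0.52 ± 0.17 at 24 h (limma adjusted p = 0.181), -0.35 ± 0.17 at 48 h (0.206) and -0.43 ± 0.17 at 72 h (0.0267), of which the last alone passed with all 8 libraries. Without either 72 h library the 24 h value (0.0315 and 0.0320) and the 48 h value (0.0396 and 0.0406) were called. With the compared groups fitted alone those at 24 and 48 h were called (0.0457 and 0.0407) and that at 72 h was not (0.120). The 72 h call was lost with scaling, where the second 72 h library reached 4.95 and the change was -0.25 ± 0.13 (adjusted p = 0.145), with no filter on low genes (0.0611), and without either 0 h library (0.0828 and 0.236).

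IER2 encodes a small nuclear protein induced with FOS. It had 48.12 and 47.51 TPM at 0 h, 35.84 and 36.17 TPM at 24 h, 32.21 and 35.45 TPM at 48 h, and 26.31 and 24.16 TPM at 72 h. The 24 and 48 h libraries lay between the controls and the 72 h libraries without overlap. The 24 h change of -0.40 ± 0.16 was not called (limma adjusted p = 0.457), except without either 72 h library (0.0144 for each, and 0.0396 and 0.0408 with scaling) or with the compared groups alone (0.0190). The 48 h fall was -0.49 ± 0.16 (limma adjusted p = 0.0342), and -0.48 ± 0.08 with scaling (adjusted p = 0.00302). As deposited the 48 h call was lost without any 1 of the 0, 24 or 48 h libraries (adjusted p = 0.409 and 0.347, 0.109 and 0.108, 0.484 and 0.238), and with scaling it held in each such fit. At 72 h the fall was -0.90 ± 0.16 (limma adjusted p = 3.26e-07), a mean TPM that decreased by 47.2%, and -0.68 ± 0.08 with scaling (adjusted p = 9.7e-05). It was called under all 28 alternatives run, with values from -0.96 to -0.56.

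IER3, also known as IEX-1, is a membrane-associated regulator of ERK signalling and survival and was the most abundant member, at the 94.4th percentile of kept genes at 0 h. It had 107.12 and 105.88 TPM at 0 h, 78.61 and 75.69 TPM at 24 h, 87.45 and 85.29 TPM at 48 h, and 89.81 and 65.82 TPM at 72 h. All 6 TCF7L2 siRNA libraries lay below both controls, and the 72 h libraries were the farthest apart, at 86.68 and 81.82 after scaling. The 72 h fall was -0.46 ± 0.16 (limma adjusted p = 0.0132), and -0.25 ± 0.05 with scaling (adjusted p = 0.00239). As deposited it was -0.24 without the second 72 h library (adjusted p = 0.00608) and was not called without either 0 h library (0.147 and 0.136) or with no filter on low genes (0.054). The values at 24 and 48 h, -0.46 and -0.30, were not called as deposited with all 8 libraries (limma adjusted p = 0.302 for each). With the compared groups fitted alone they were called lower (limma adjusted p = 0.0125 and 0.00292). Leaving out either 72 h library did not change these values. With scaling they were -0.36 ± 0.05 and -0.29 ± 0.05 and called lower (adjusted p = 0.0155 and 0.00332). The scaled 24 h call was lost without either 0 h library (adjusted p = 0.151 and 0.113) or either 24 h library (0.0867 and 0.117).

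**Figure D3:**
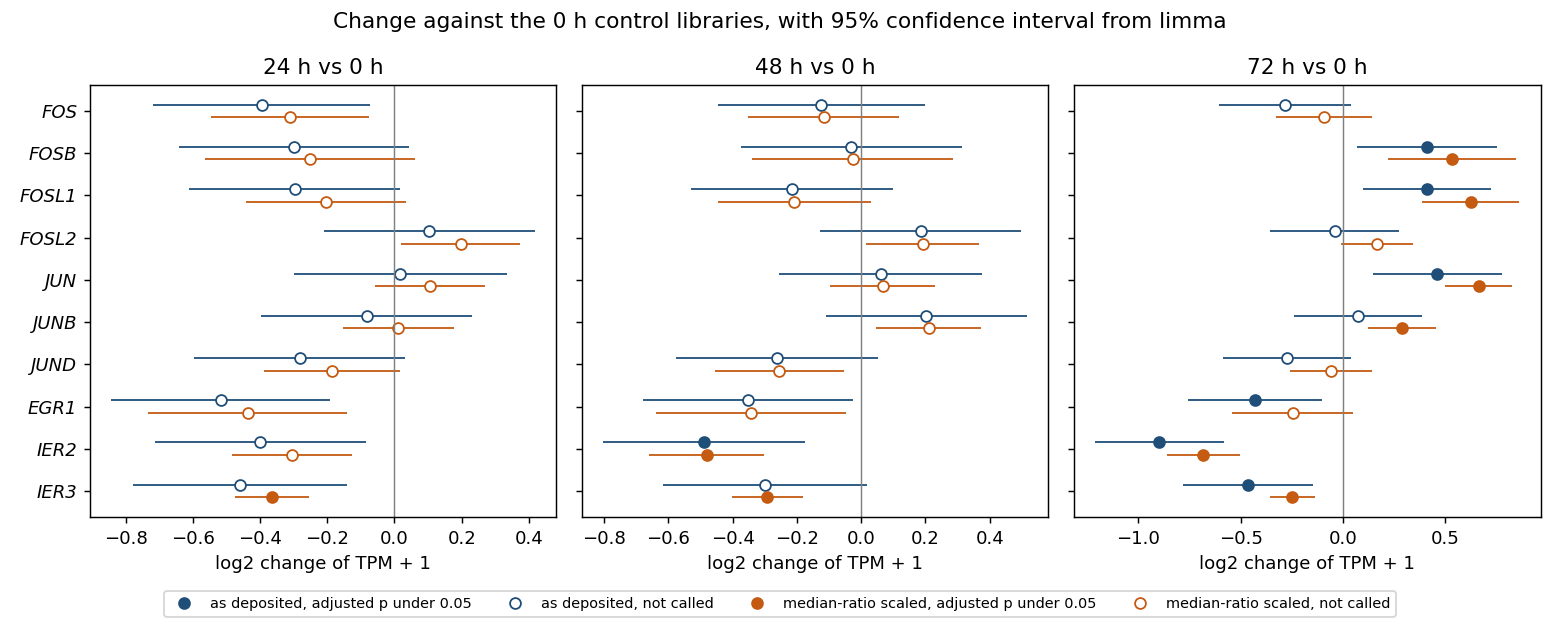
Log2 change from 0 h (horizontal axis, log2(TPM + 1) scale) of the 10 members at 24, 48 and 72 h, with 95% intervals from limma, as deposited and after median-ratio scaling, filled where called. At 72 h FOSL1, JUN and FOSB lie right of 0 and IER2 and IER3 left of 0 under both, while the scaled interval of EGR1 crosses 0.

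Read across the members, most lay below the controls at 24 h, though with all 8 libraries as deposited none passed the test there. At that time 8 of 10 members had both libraries below both controls, where 46.7% of all kept genes did, and none had both above, where 10.8% did. With scaling the counts were 7 of 10 below and 2 of 10 above, against 24.9% of kept genes each way. Of the 10, 4 had an unadjusted p under 0.05 in limma (FOS, EGR1, IER2 and IER3), as had 849 of the 11894 kept genes. Scaling left 1 member called at 24 h, IER3, where 1.08% of kept genes were, and 2 at 48 h, IER2 and IER3, where 23.5% were. At 72 h it left 6, FOSB, FOSL1, JUN and JUNB higher and IER2 and IER3 lower, where 52% of kept genes passed, 25.8% in the higher and 26.2% in the lower direction. Libraries without overlap with the controls at 72 h were counted as well: 5 of 10 members lay below and 3 above as deposited, against 47.4 and 17.4% of kept genes, and 2 below and 5 above with scaling, against 37.8 and 37.6%.

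Between the siRNA times no control library enters the difference, and 72 h differed from the earlier times. From 48 to 72 h FOSL1 rose by 0.63 ± 0.16 (limma adjusted p = 0.00107), FOSB by 0.44 (0.0440) and JUN by 0.40 (0.0483), and IER2 fell by 0.41 (0.0422). These 4 of 10 stood where 27% of kept genes were called, 4.96% higher and 22% lower. With scaling FOSL1, FOSB and JUN kept their calls (adjusted p = 0.000366, 0.0111 and 0.000298), where 39.9% of kept genes were called, and IER2 did not (-0.20, adjusted p = 0.0690). As deposited the calls of JUN and IER2 ended on omitting any 1 of the control, 24 or 48 h libraries (limma adjusted p up to 0.268 and 0.368). FOSB lost its call without any 1 library except the second at 72 h, with the difference at 0.27 without the first 48 h library (0.434) and 0.26 without the first 72 h library (0.235), and with scaling it lost it without these 2 alone (0.077 and 0.0554). FOSL1 lost its call without the second 48 h library (0.0684) and with scaling under no omission. From 24 to 72 h the same 4 were called, where 33.4% of kept genes were: FOSL1 0.71 (limma adjusted p = 9.5e-05), FOSB 0.71 (0.000397), JUN 0.45 (0.0214) and IER2 -0.50 (0.00857). FOSL1 and FOSB held these calls without any 1 library, JUN lost it without any 1 of the control, 24 or 48 h libraries (0.05 to 0.217), and IER2 without either 24 h library (0.111 and 0.122). All 4 held with scaling, and JUNB joined them at 0.28 (adjusted p = 0.0109), where 50.1% of kept genes were called. That call of JUNB ended on omitting the second 24 h library (0.0673) or the second 72 h library (0.0631). From 24 to 48 h no member was called or had an unadjusted p under 0.05 in limma, where 5.02% of kept genes were called, and with scaling none was called and 1 had an unadjusted p under 0.05, where 14% were called. As deposited 2 were called without either 72 h library.

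The other genes of the pathway were taken from 4 lists, which share a few genes. Of those named below, ATF3, HBEGF and NAB2 stand in more than 1. The first held 30 other basic leucine zipper genes of the ATF, CREB, MAF and BATF groups, of which 25 were kept. At 72 h 2 of the 25 were called higher and 14 lower, where 10.5 and 31.2% of all kept genes were, with a median change of -0.51 beside -0.19. With scaling 4 were higher and 13 lower, where 25.8 and 26.2% were, with a median of -0.30. ATF5, a stress-response factor, fell from 119.99 and 115.04 TPM at 0 h to 27.09 and 22.77 TPM at 72 h. The change was -2.20 ± 0.16 (limma adjusted p = 1.2e-39), and -1.98 ± 0.06 with scaling (adjusted p = 4.35e-08). DDIT3 (CHOP), an endoplasmic reticulum stress factor, changed by -1.83 and ATF3, which pairs with JUN, by -1.26. CREB3 changed by -1.18 and ATF1 by -0.91, and all of these were called lower. With scaling their values were -1.62, -1.08, -0.98 and -0.70, also called lower. ATF5, DDIT3 and ATF3 were already called lower at 48 h, at -0.59, -0.55 and -0.53 (limma adjusted p = 0.0062, 0.0132 and 0.0215). NFE2, the erythroid MAF partner, rose by 0.52 at 48 h (limma adjusted p = 0.0250) and by 0.74 at 72 h. NRL, at 1.64 and 1.58 TPM at 0 h, was called lower at 48 h (-0.51, adjusted p = 0.0464), a call that scaling ended (0.0680). As deposited the 48 h calls of ATF5, DDIT3, ATF3 and NFE2 ended on omitting either control or either 48 h library, and those of DDIT3, ATF3 and NFE2 also on omitting either 24 h library (highest limma adjusted p = 0.309, 0.329, 0.466 and 0.391). With scaling ATF5, DDIT3 and NFE2 held under every omission, and ATF3 did not without the first control or the second 48 h library. The 72 h calls of the genes named from the 4 lists held without any 1 library on both scales.

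Of 48 other immediate early genes, 46 were listed and 41 kept. CYR61 and CTGF were not found under these symbols. At 24 h none of the 41 had a change above 0, the median was -0.23 beside -0.09 for all kept genes, and none was called, while 17 had an unadjusted p under 0.05 in limma, as had 849 of 11894 kept genes. With scaling 2 of 41 lay above 0, the median was -0.14 and 2 were called lower, where 1.08% of all kept genes were. The 2 were DUSP6, an ERK phosphatase (-0.49, limma adjusted p = 0.00939), and MYC (-0.25, adjusted p = 0.0310), both named after their values were seen. At 72 h 6 were called higher and 15 lower, 51.2% of the list beside 41.8% of all kept genes, with a median of -0.28. With scaling 14 and 13 were, 65.9% beside 52%, with a median of -0.11. HBEGF, an EGF receptor ligand, fell from 11.70 and 10.51 TPM at 0 h to 3.05 and 2.12 TPM at 72 h. Its change was -1.77 ± 0.16 (limma adjusted p = 6.97e-25), and -1.59 ± 0.10 with scaling (adjusted p = 1.72e-06). ID1, an inhibitor of basic helix-loop-helix factors, changed by -1.22 and IER5L, a relative of IER2, by -1.09. With scaling they changed by -1.01 and -0.90. In the other direction SGK1, a serum- and glucocorticoid-induced kinase, rose from 1.67 and 1.70 TPM to 7.06 and 3.82 TPM. That rise was 1.22 ± 0.17 (limma adjusted p = 2.74e-11), and 1.38 ± 0.16 with scaling (adjusted p = 0.000106). BTG2, an antiproliferative gene, rose by 0.93, and by 1.13 with scaling. GADD45B, a stress-induced regulator of p38 signalling, was called lower at 48 h (-0.75 ± 0.17, limma adjusted p = 0.000397), but not without the second control (0.0777).

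Among 36 upstream regulators (SRF, ternary complex factors, their cofactors, and the ERK, JNK and p38 kinases), 34 were listed and 33 kept. The SRF cofactors MKL1 and MKL2 were not found under these symbols, so they are not in the counts. No gene of the 33 was called at 24 h, where 4 had an unadjusted p under 0.05 in limma, 3 were called lower at 48 h, and 2 were called higher and 11 lower at 72 h. These were 9.09 and 39.4% of the list, close to the 7.75 and 41.8% of all kept genes. With scaling 2 were higher and 6 lower at 48 h and 5 and 10 at 72 h. These were 24.2 and 45.5% of the list, beside 23.5 and 52% of all kept genes. MAP2K6, a kinase that activates p38, fell from 26.15 and 31.83 TPM at 0 h to 13.34 and 10.05 TPM at 72 h. Its change was -1.25 ± 0.16 (limma adjusted p = 3.25e-13), and -1.04 ± 0.09 with scaling (adjusted p = 1.37e-05). NAB1 and NAB2, corepressors that bind EGR1, fell by 1.02 and 0.78 at 72 h. With scaling NAB1 changed by -0.81, and NAB2 by -0.66 to -0.51 over single omissions. RPS6KA2, a kinase downstream of ERK, changed by -0.75 and MAPK12, a p38 kinase, by -0.71. With scaling they changed by -0.64 to -0.49 and by -0.54 to -0.47 over single omissions. ELK4, a ternary complex factor, was called lower at 48 h (-0.56, limma adjusted p = 0.0129) and not at 72 h (-0.27, adjusted p = 0.175). Its 48 h call ended on omitting either control or either 48 h library (up to 0.400), and with scaling on omitting the second control or either 48 h library (up to 0.115).

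Of 43 symbols of genes described elsewhere as AP-1 targets, 41 were listed and 31 kept. LOR and IL8 were not found under these symbols, and IL8 is an older symbol of CXCL8, which was listed. At 48 h 8 were called higher and 2 lower, where 7.75% of all kept genes were called, and at 72 h 13 and 7, where 10.5 and 31.2% were. The median 72 h change was 0.32 beside -0.19 for all kept genes. With scaling the counts were 15 and 5 at 48 h, where 23.5% of all kept genes were called. At 72 h they were 20 and 4, where 25.8 and 26.2% were, with a median of 0.48 beside 0.00. CD44, a hyaluronan receptor, had 12.80 and 12.08 TPM at 0 h. It rose to 45.63 and 53.27 TPM at 48 h and 113.87 and 116.83 TPM at 72 h (3.11 ± 0.16, limma adjusted p = 8.39e-81). As for every gene as deposited, this p takes its spread from the trend over all kept genes, not from the gene's own libraries. With scaling the 72 h change was 3.13 to 3.53 over single omissions. PLAUR and PLAU, the urokinase receptor and its ligand, were called higher at 48 h, at 0.88 and 0.84, and CXCL8, a chemokine, at 0.80. VIM, an intermediate filament gene, rose by 1.26 at 72 h. VEGFA, the vascular growth factor, fell by 1.21. With scaling their changes were 1.45 to 1.48 and -1.05 to -0.95 over single omissions. CDKN1A, the p21 cell cycle inhibitor, was the 1 gene of this list called at 24 h as deposited (-0.81 ± 0.16, limma adjusted p = 0.000506), with 14.13 and 14.94 TPM at 0 h and 7.98 and 7.77 TPM at 24 h, and it was back at 14.62 and 15.03 TPM at 48 h. That call ended on omitting either control or either 24 h library (limma adjusted p = 0.106 to 0.226), and with scaling on omitting the first 24 h library (0.0509). With scaling 1 gene of the list was called higher at 24 h, PLAU (0.59, adjusted p = 0.0313, and up to 0.205 over single omissions), and 3 lower: CDKN1A, and AREG and EREG, EGF receptor ligands named after their values were seen. Of all kept genes 1.08% were called at 24 h with scaling, and 0.462% as deposited. The genes of this list respond to many factors, and the counts do not tell AP-1 from others.

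**Figure D4:**
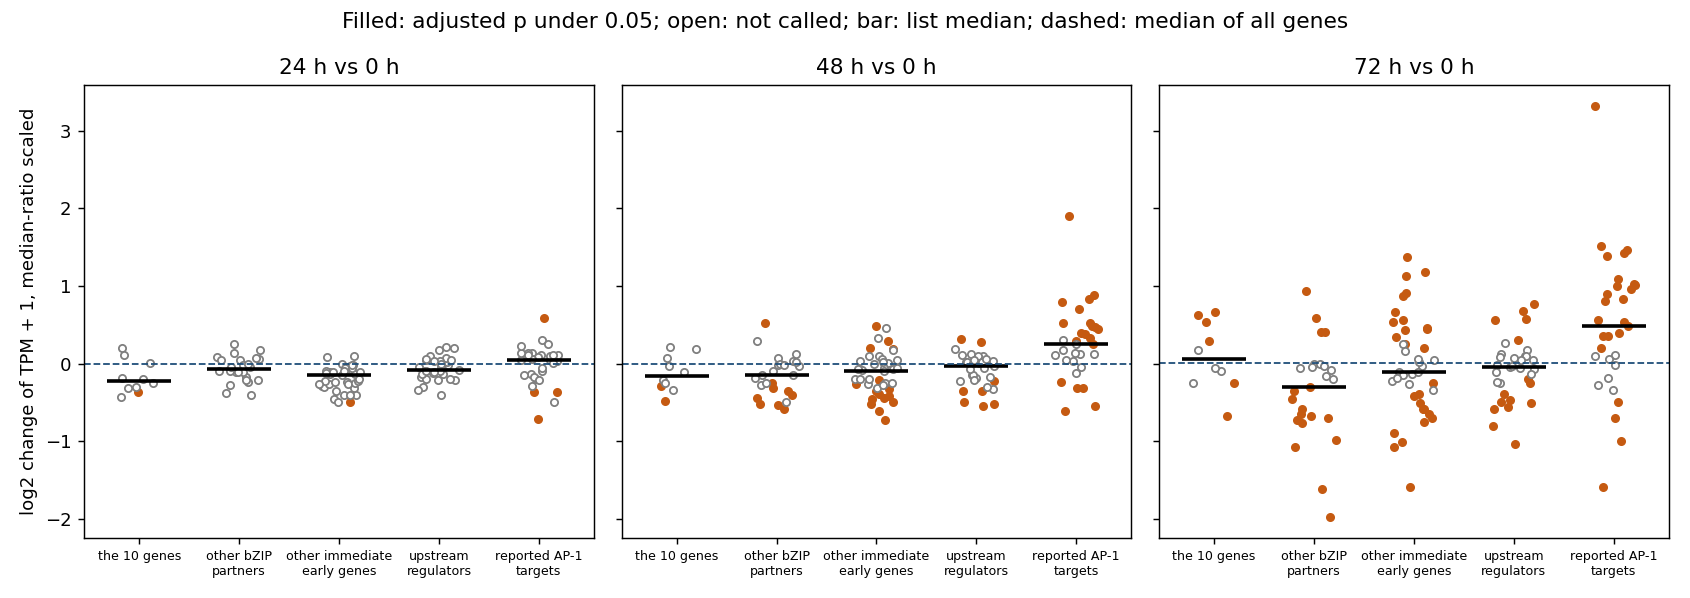
Log2 change from 0 h (vertical axis, log2(TPM + 1) scale after median-ratio scaling) at 24, 48 and 72 h for the members and the 4 lists, with 1 point per kept gene (filled where called), a bar at the list's median and a dashed line at the median of all kept genes. At 24 h 2 of the 41 other immediate early genes lie above 0, and at 72 h the AP-1 target list has a median of 0.48 beside 0.00 for all kept genes.

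The genes whose scaled changes at 24, 48 and 72 h lay nearest to a member's were taken from all kept genes by the distance over these 3 values. JUN lay nearest to SGK3, which changed by 0.13, 0.07 and 0.68 where JUN changed by 0.10, 0.07 and 0.67 (distance 0.0286). BRCA1 and ATAD2 were nearest to IER2 (0.0448 and 0.0510), PITPNC1 and STARD4 to IER3 (0.0299 and 0.0434), and MYADM and CDK6 to EGR1 (0.0637 and 0.0807). SIDT2 and AMT were nearest to FOSL1 (0.0566 and 0.0845), and DGKB and FKBP7 to FOSB (0.0569 and 0.0847). The values rest on 4 groups that share their libraries, and they describe likeness alone.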

How the data were processed

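The authors deposited 1 table of TPM for 18656 gene symbols, made with RSEM after Trimmomatic and STAR on hg19, per the submitters' processing notes. For versions, annotation and strand, nothing is stated in the sources used here. Ribosomal RNA was depleted before library preparation, per the labels' protocols, which speak of 3 treated replicates where 2 per group are listed. From the TPM, log2(TPM + 1) was computed, and genes with at least 1 TPM in 2 libraries were kept. One limma model (3.58.1, R 4.3.3; trend, empirical Bayes) took in all 8 libraries (residual degrees of freedom 4). Its p-values are two-sided and Benjamini-Hochberg adjusted over 11894 genes, at a threshold of 0.05. As deposited the moderation gave each gene the trend's spread alone (infinite prior degrees of freedom, median SE 0.162), and with median-ratio scaling the median SE was 0.0912. Fold changes on this scale understate low genes. The limma step was tested on simulated data with independent normal noise and no shift between libraries. That test cannot show how the low second 72 h library affects the calls.

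The members and lists were chosen with earlier results of these data known. From each list up to 5 genes with the smallest p at 72 h were named, plus up to 3 others called at 24 or 48 h, and for each member called at 72 h the 2 nearest genes. Alternatives were other pseudocounts, filters, scalings and variance models, the compared groups alone, a replicate block and leaving out each library.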

Additional observations from a re-analysis of the deposited data

Results flagged for a closer look

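Between siRNA times, 4 members differed by a test of the difference itself, in which the shared 0 h libraries cancel, where 27% of kept genes were called between 48 and 72 h and 33.4% between 24 and 72 h. The change from 0 h at 72 h exceeded that at 48 h by 0.63 for FOSL1, 0.44 for FOSB and 0.40 for JUN, and that of IER2 lay lower (-0.41). Against 24 h the same differences were 0.71 for FOSL1, 0.71 for FOSB, 0.45 for JUN and -0.50 for IER2. Scaling ended the 48 to 72 h call of IER2 alone among these 8. As deposited the 48 to 72 h calls of JUN and IER2 ended on 6 of 8 single omissions and that of FOSB on 7 of 8.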

How the results depend on the processing

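Each result was recomputed under 28 alternatives, and those of FOSB under 27, since a minimum TPM of 5 removes it. Members called numbered 0, 1, 6, 0, 4 and 4 for 24, 48 and 72 h against 0 h, 48 against 24 h, 72 against 48 h and 72 against 24 h. Median-ratio scaling, quantile normalization and the replicate block with median-ratio scaling each gave 1 at 24 h and 2 at 48 h, and an equal listed sum gave 1 and 3. No filter gave 0 at 48 h, 3 at 72 h and 2 for 72 against 48 h, and no trend 0 at 48 h and 2 for 72 against 48 h. The compared groups alone gave 5, 5, 1, 1, 0 and 2. Leaving out 1 library gave 0 to 5, 0 to 5, 1 to 7, 0 to 2, 0 to 6 and 2 to 6 as deposited, and 0 to 2, 2 to 5, 4 to 6, 0 to 0, 2 to 4 and 4 to 7 with scaling; a lone library was taken to vary like the others. IER3 from 24 to 72 h was called lower without the first 72 h library (-0.23). Direction turned in 144 values of members where neither value was called, such as EGR1 from 48 to 72 h (-0.08, and 0.10 with scaling), and in 6 where one was: IER3 from 24 to 72 h, from -0.00 to 0.14 (equal listed sum), 0.20 (quantile), 0.22 (without the second 72 h library) and 0.16 (the same with scaling), and, with scaling and without the first 72 h library, FOSL2 at 72 h (0.24) and JUND from 48 to 72 h (0.33). The cause was not tested. Same-numbered libraries did not deviate together (correlations -0.09 to 0.11), and the replicate block gave 0, 1, 6, 0, 3 and 4. With TPM alone, depth sets no stated limit.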
